A study of Mus musculus with 14 samples.

Results

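Ifi203, Ifi204, Ifi205 and Ifi207 are 4 genes of the Ifi200 cluster on mouse chromosome 1. They were chosen by name because the counts of their rows had differed between libraries of the knockout experiment. Their values are thus selected on these data and are given as a description. Their rows were part of the test over all rows, and nothing is read from their results there. Each gene has a row of its own and 1 or 2 further rows, which carry the same symbol with an added number and are called copy rows here. Ifi203, Ifi204 and Ifi207 have 2 copy rows each and Ifi205 has 1. The 4 genes thus hold 11 rows, 7 of them copy rows, of 42396 rows in the table, in which 1766 genes have 2379 copy rows.

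Bulk RNA-seq was performed on whole hearts of 14 female mice with a cardiac knockdown of Ndufs6, a subunit of respiratory complex I (FS6KD). In the knockout experiment, 4 Atf3+/+FS6KD hearts were compared with 4 Atf3-/-FS6KD hearts at the age of 12 weeks. In the AAV experiment, 3 hearts labelled MyoAAV2-shCtrl were compared with 3 labelled MyoAAV2-shAtf3, a vector for muscle that was injected into neonates and carries a control or an Atf3 short hairpin RNA. The column names of the AAV table read opposite to the labels, so every direction in that experiment depends on the labels, which were followed. Per the study's methods, all mice, controls included, carry the Ndufs6 gene trap on a stock of mixed background, C57BL/6J and another inbred strain. The Atf3 deletion was made by electroporating fertilized eggs, and the founders were intercrossed. Where nothing says that hearts of a group came from separate litters, p-values measure only the spread between these hearts.

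Total counts ranged from 30085432 to 134920825 per library, with replicates 3 and 4 of both knockout groups at 112904389 or more and replicates 1 and 2 at 42409691 or fewer. The cardiomyocyte marker Myh6 was at 16910 to 30931 CPM in every library. CPM are counts scaled to library size with TMM factors within each experiment, so levels in the 2 experiments are not on 1 scale. The Atf3 row was at 6.35 to 25.8 CPM in Atf3+/+FS6KD and 14.3 to 37.6 CPM in Atf3-/-FS6KD. It was at 10.1 to 14.1 CPM in hearts labelled shCtrl and 12.1 to 21.2 CPM in those labelled shAtf3 (log2 fold change 0.41 ± 0.19, adjusted p = 0.42, edgeR). The target of the hairpin was thus not lower under the shAtf3 label, and its mean was higher there, 16.6 against 12.5 CPM. A CRISPR deletion can leave transcribed exons, so in the knockout experiment this count does not measure the intact transcript.

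Ifi200 proteins carry a HIN domain that binds DNA, most of them with a pyrin domain beside it, and the genes are induced by interferon. Aim2, the best known member, builds an inflammasome on cytosolic DNA. Their products are abundant in macrophages and other immune cells. The cluster is known to differ between inbred strains in gene number and expression, and Ifi202b is known to be low or silent in C57BL/6 mice. The reference genome is that of C57BL/6J, and its patches add alternate loci from other strains. The copy rows were read as the genes on such alternate loci, which the labels do not state. The counts are not all whole, so reads that fit a gene and its copy equally appear to have been split between them, which was not tested. An even split would put 66.7% of counts on copy rows with 2 copies and 50% with 1.

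On GRCm38.p6, RefSeq places Ifi207 at chr1:173723424-173741831, Ifi204 at chr1:173747293-173767069, Ifi203 at chr1:173920400-173942866 and Ifi205 at chr1:174011998-174031755. All 4 lie on the minus strand, within 308 kb. Atf3 lies 17.1 Mb further along the chromosome. The genes are similar in sequence. Of all windows of their transcripts as long as a read of the knockout libraries, 2.79% for Ifi203, 10.6% for Ifi204, 15% for Ifi205 and 0.731% for Ifi207 also occur in transcripts of another gene, mainly Ifi211 for Ifi204 and Ifi205.

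The core of the interferon-stimulated response element, searched on both strands as 2 GAAA blocks with any 2 bases between them, occurs in the 250 bases upstream of a start for the 3 members with a RefSeq promoter entry and for 6 of 9 other family genes. It occurs in 2.98% of all 32851 promoters of that length in the table. These 30-base windows around the match are shown because they set the members beside their nearest relatives, 5′ to 3′ on the gene's strand, with the match in capitals.

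Ifi207 (chr1:173741831-173741860): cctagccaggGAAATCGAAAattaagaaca
Ifi205 (chr1:174031870-174031899): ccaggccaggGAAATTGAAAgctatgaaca
Ifi211 (chr1:173913064-173913093): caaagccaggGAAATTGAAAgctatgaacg
Ifi203 (chr1:173942508-173942537): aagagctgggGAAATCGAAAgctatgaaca
Mndal (chr1:173880204-173880233): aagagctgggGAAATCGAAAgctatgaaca

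The Ifi203 and Mndal windows are the same, and Ifi205 has the match of Ifi211. No match was found for Ifi202b, Ifi209 or Aim2 in this window.

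Copy row share, the percentage of a gene's counts on its copy rows, lay at 3 levels over the knockout libraries in Ifi203, Ifi204 and Ifi207. In Ifi205 the same libraries were low, middle and high, with a small step between low and middle. For Ifi203 it was 36.1%, 35.8%, 34.7% and 52.1% in Atf3+/+FS6KD replicates 1 to 4. It was 48.8%, 53.4%, 49.8% and 70.1% in Atf3-/-FS6KD replicates 1 to 4. Atf3+/+FS6KD replicate 4 thus lay among Atf3-/-FS6KD replicates 1 to 3, and Atf3-/-FS6KD replicate 4 lay above all others. In the AAV experiment the share was 38%, 37.6% and 39% under the shCtrl label and 37.9%, 34.6% and 35.4% under the shAtf3 label, all near Atf3+/+FS6KD replicates 1 to 3.

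For Ifi204, which encodes p204, a sensor of DNA, the share was 49.9%, 49.5%, 50% and 60.9% in Atf3+/+FS6KD. It was 60.7%, 61%, 62.3% and 75.8% in Atf3-/-FS6KD. The 6 AAV libraries lay between 49.2% and 51.6%. The same libraries were low, middle and high as for Ifi203, with a narrower distance between the levels.

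For Ifi207 the share was 31%, 29.3%, 28.9% and 50% in Atf3+/+FS6KD. In Atf3-/-FS6KD it was 52.3%, 48.4%, 50.1% and 76.4%. The AAV libraries lay between 27.2% and 31.3%. Atf3+/+FS6KD replicate 4 again lay within the range of Atf3-/-FS6KD replicates 1 to 3.

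Ifi205 had the narrowest step from low to middle. Its share was 27%, 28.2%, 26.6% and 30.9% in Atf3+/+FS6KD and 33.6%, 31.2%, 33.8% and 76.3% in Atf3-/-FS6KD, with 26.5% to 27.4% in the AAV libraries. Here, unlike in the other genes, every Atf3-/-FS6KD heart exceeded Atf3+/+FS6KD replicate 4 (interval 26.8% to 35.5%). The 4 middle libraries, at 30.9% to 33.8%, all lay above the 9 low ones, at 26.5% to 28.2%. Single libraries were not all apart by their intervals, which treat rounded counts as whole reads. These intervals were wider than the scatter of the AAV shares. The interval of Atf3-/-FS6KD replicate 3 (29.5% to 38.4%) was clear of Atf3+/+FS6KD replicate 3 (24.1% to 29.2%), while all 4 overlapped Atf3+/+FS6KD replicate 2 (23.2% to 33.9%). The top value rests on 112 counts, 26.6 of them on the gene row, and its interval runs from 68.2% to 83.6%.

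**Figure D1:**
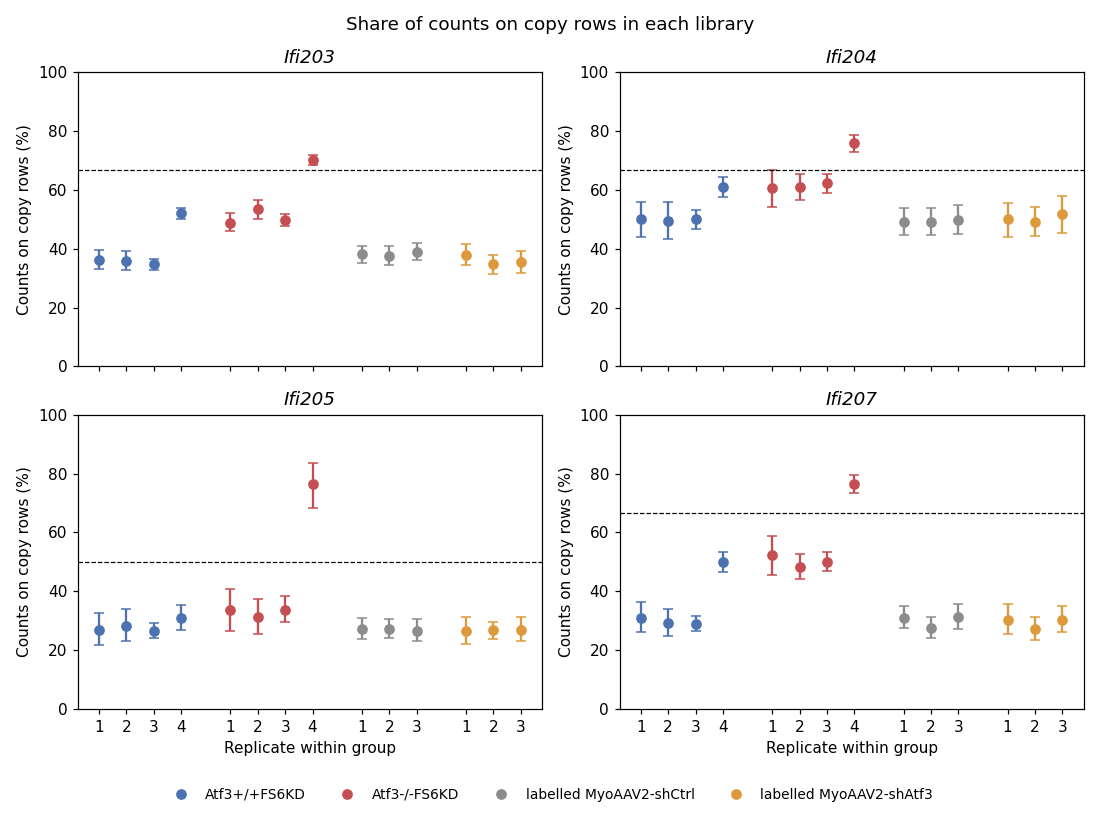
Share of counts on copy rows (y axis, percent) of each gene in each library (x axis, replicates within 4 groups); points are libraries, bars are 95% Wilson intervals and the dashed line is an even split over rows. Atf3-/-FS6KD replicate 4 lies above the line in all 4 panels, and Atf3+/+FS6KD replicate 4 lies beside Atf3-/-FS6KD replicates 1 to 3 for Ifi203, Ifi204 and Ifi207, while for Ifi205 these 4 libraries lie a small step above the low ones.

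Pooled over the 4 genes, the share was 36%, 35.1%, 34.2% and 51.3% in Atf3+/+FS6KD, and 49.4%, 51.4%, 50.6% and 72.4% in Atf3-/-FS6KD. With the shCtrl label it was 36%, 34.4% and 36.6%, and with the shAtf3 label 36.1%, 32.5% and 34.3%. The Wilson intervals at 95% had half-widths of 1.72 to 3.65 points for Ifi203 and 2.57 to 7.74 points for Ifi205. They treat the rounded counts as whole reads and leave out the spread between hearts, so they are only a rough guide. In the AAV libraries the Ifi205 share spanned 26.5% to 27.4%, less than the width of its intervals there. The libraries near 50% include both shallow ones (Atf3-/-FS6KD replicates 1 and 2) and deep ones (Atf3-/-FS6KD replicate 3 and Atf3+/+FS6KD replicate 4).

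The mean share was higher in Atf3-/-FS6KD by 15.8 points for Ifi203, 12.4 for Ifi204, 15.5 for Ifi205 and 22 for Ifi207. The groups overlapped for 3 of the 4 genes and did not for Ifi205. Among 681 other genes with copy rows and a mean of at least 100 counts, the groups did not overlap in 26 (3.82%). Since the members were selected on this comparison, nothing is read from their count. Without both replicates 4, a choice made after seeing the data, the difference was 15.1, 11.5, 5.61 and 20.6 points for Ifi203, Ifi204, Ifi205 and Ifi207. For Ifi205 it was 4.69 points without Atf3-/-FS6KD replicate 4 alone. In the AAV experiment the differences, labelled shAtf3 minus labelled shCtrl, ran from -2.21 points for Ifi203 to 0.87 for Ifi204, and the groups overlapped for all 4 members. Of 613 other genes, 56 (9.14%) did not overlap there.

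The copy rows themselves differed by library. The _1 and _2 rows of Ifi203 held the same count to 2 decimals in 9 of 14 libraries, those of Ifi204 in 12 and those of Ifi207 in 13. The 5 libraries in which the Ifi203 pair differed were Atf3+/+FS6KD replicate 4 and Atf3-/-FS6KD replicates 1 to 4. In Atf3-/-FS6KD replicate 4 they held 933 and 982 counts, and in Atf3+/+FS6KD replicate 4 they held 698 and 723. The Ifi204 pair differed in the 2 libraries numbered 4, by at most 0.13 counts, and the Ifi207 pair in Atf3-/-FS6KD replicate 4, with 281 and 287 counts.

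The total level, gene row plus copy rows, did not follow the share in 3 of the 4 genes. For Ifi203 it was 21.3, 27.4, 21.5 and 20.6 CPM in Atf3+/+FS6KD (22.7 ± 3.16, SD, n = 4) and 28.8, 24, 21.3 and 21.8 CPM in Atf3-/-FS6KD (24 ± 3.41). The groups overlapped, with a log2 ratio of means of 0.08. Over the same libraries the gene row averaged 13.8 CPM in Atf3+/+FS6KD against 10.8 CPM in Atf3-/-FS6KD, and the copy rows 8.93 and 13.2 CPM. Atf3-/-FS6KD replicate 4, with the lowest gene row (6.53 CPM), had the highest copy rows (15.3 CPM).

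Ifi204 totalled 6.59, 7.09, 7.38 and 6.05 CPM in Atf3+/+FS6KD against 6.39, 12.2, 6.9 and 6.19 CPM in Atf3-/-FS6KD. Atf3-/-FS6KD replicate 2 stood alone, and without it the log2 ratio of means went from 0.22 to -0.06. Ifi207 totalled 7.32, 11.1, 10.2 and 6.29 CPM in Atf3+/+FS6KD against 6.1, 13.4, 8.04 and 5.94 CPM in Atf3-/-FS6KD, a log2 ratio of -0.06 that lay between -0.38 and 0.08 when each library was left out. The groups overlapped for both genes. Atf3-/-FS6KD replicate 2 also had the highest summed level of 15 macrophage markers (623 CPM, against 392 to 544 CPM in the other 7 libraries) and of 33 interferon response genes (676 CPM, against 407 to 587 CPM). Their part in the Ifi204 and Ifi207 levels was not tested. In whole hearts, fewer cells of a type and less RNA per cell cannot be told apart.

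The Ifi205 total was lowest in Atf3-/-FS6KD replicate 4, the library with the highest share. It was at 6.24, 8.27, 9.68 and 3.29 CPM in Atf3+/+FS6KD (6.87 ± 2.77) and 4.57, 6.17, 3.6 and 0.9 CPM in Atf3-/-FS6KD (3.81 ± 2.21). The log2 ratio of means was -0.85, between -1.19 and -0.52 when each library was left out, and the groups overlapped. The gene row of Atf3-/-FS6KD replicate 4 was at 0.21 CPM, against 2.27 to 7.11 CPM in the other 7 libraries.

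**Figure D2:**
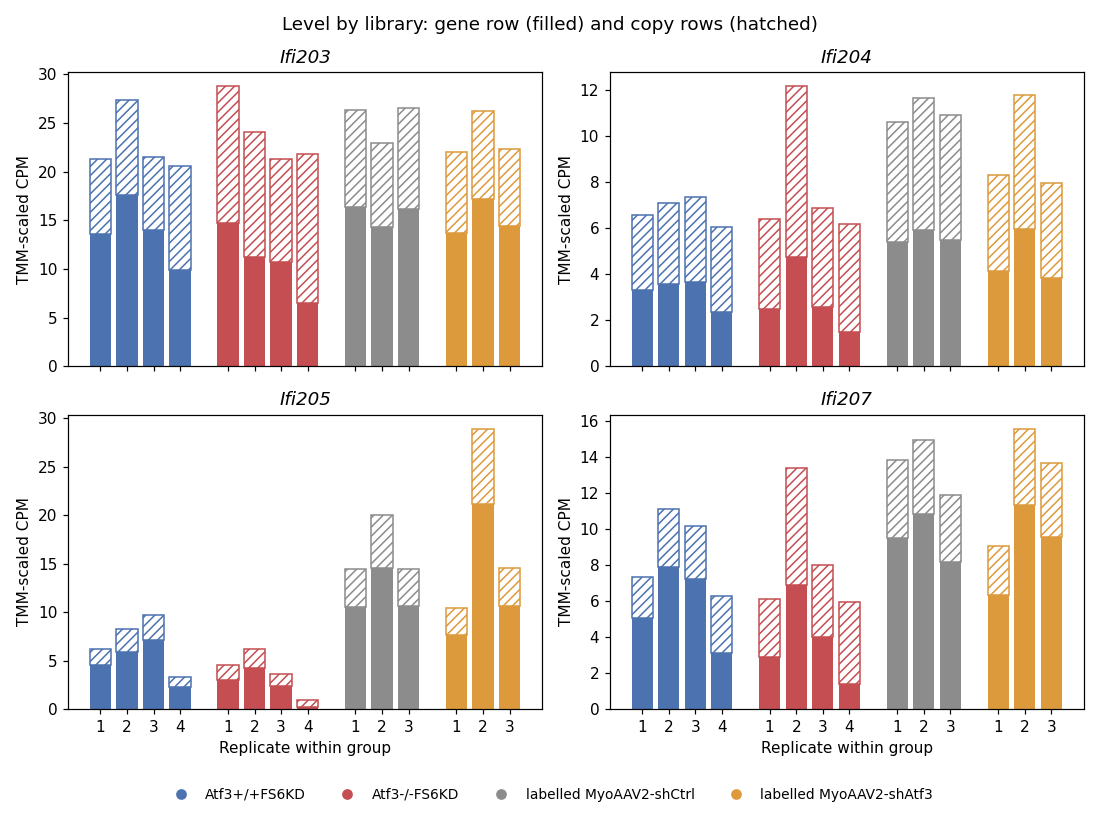
TMM-scaled CPM (y axis) of the gene row (filled) and copy rows (hatched) of each gene in each library (x axis, replicates within 4 groups). Ifi203 totals stay between 20.6 and 28.8 CPM while their make-up changes, and Ifi205 is at 0.9 CPM in Atf3-/-FS6KD replicate 4.

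In the AAV experiment Ifi203 totalled 26.4, 22.9 and 26.5 CPM under the shCtrl label and 22, 26.2 and 22.3 CPM under the shAtf3 label. Ifi204 totalled 10.6, 11.7 and 10.9 CPM against 8.33, 11.8 and 7.98 CPM. Ifi207 totalled 13.8, 15 and 11.9 CPM against 9.07, 15.6 and 13.7 CPM. All 3 genes overlapped between the groups, and the log2 ratios of means were -0.1, -0.24 and -0.09. Without replicate 2 labelled shAtf3 they were -0.19, -0.44 and -0.26, and without replicate 1 labelled shAtf3 the Ifi207 ratio was 0.11. Ifi205 totalled 14.5, 20.1 and 14.5 CPM against 10.5, 28.9 and 14.6 CPM, and its log2 ratio of 0.14 became -0.38 without replicate 2 labelled shAtf3, which held the highest value.

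All 11 member rows passed the filter of 1 CPM in at least 1 library in both experiments. In edgeR's quasi-likelihood test with Benjamini-Hochberg adjustment, 0 of 15592 rows (0%) passed an adjusted p of 0.05 in the knockout comparison, while 1575 (10.1%) had an unadjusted p below 0.05 and DESeq2 called 208 rows. The levels of the groups did not overlap in 891 rows (5.71%), in 3 of the 11 member rows (Ifi203_1, Ifi204_1 and Ifi204_2, all higher in Atf3-/-FS6KD) and for 0 of 4 member totals. The 6 copy rows of Ifi203, Ifi204 and Ifi207, which are 3 pairs with equal or similar values, had an unadjusted p below 0.05. Their log2 fold changes were 0.51 to 0.65. The other 5 member rows did not have such a p. The members were selected on this comparison, so nothing is read from these counts. In the AAV comparison 82 of 15225 rows (0.539%) passed, 1933 (12.7%) had an unadjusted p below 0.05, and 2802 (18.4%) did not overlap, with 0 of 11 member rows and 0 of 4 member totals among them.

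Ifi202b, the strain-dependent neighbour that lies between Ifi203 and Ifi205, was present in the 5 libraries whose pooled copy row share was near 50% or above. Summed over its gene row and 3 copy rows, it had 0 counts in Atf3+/+FS6KD replicates 1 to 3 and in all 6 AAV libraries, where 3 counts correspond to at most 0.102 CPM. It had 4.58 CPM in Atf3+/+FS6KD replicate 4 and 5.24, 7.7, 5.7 and 9.7 CPM in the 4 Atf3-/-FS6KD hearts. The highest value was again that of Atf3-/-FS6KD replicate 4. For its gene row the knockout comparison gave a log2 fold change of 2.16 ± 1.06 (SE) and an adjusted p of 0.533 (edgeR). This row passed the filter of 1 CPM only through Atf3-/-FS6KD hearts, as its highest value in Atf3+/+FS6KD was 0.915 CPM. Without Atf3+/+FS6KD replicate 4 the controls are all at 0 counts, so the adjusted p of 0.0283 found then (range over 16 alternatives 0.0283 to 0.79) only restates that they have no count, and the fitted fold, which depends on the prior count, is not given.

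Mndal, which lies between Ifi204 and Ifi203, took the opposite course. Its gene row was at 11.4, 14.5, 11.3 and 4.98 CPM in Atf3+/+FS6KD against 7.51, 7.77, 6.61 and 0.32 CPM in Atf3-/-FS6KD, a log2 fold change of -0.94 ± 0.71 with an adjusted p of 0.671 (edgeR), and of -0.52 without Atf3-/-FS6KD replicate 4. In the AAV libraries it was at 11.6 to 15.2 CPM. The libraries numbered 4 were the lowest of both knockout groups, which was also so for the gene rows of all 4 members and of Ifi206, Ifi208, Ifi209, Ifi211 and Ifi213. In Atf3+/+FS6KD and Atf3-/-FS6KD replicates 4 the gene row was at 9.87 and 6.53 CPM for Ifi203, 2.37 and 1.49 CPM for Ifi204, 2.27 and 0.21 CPM for Ifi205, and 3.15 and 1.4 CPM for Ifi207.

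Of 17 further family genes on the list, 9 were listed in the table and 8 were tested in the knockout comparison, where 2 were higher, 6 lower and 0 called, with a median log2 fold change of -0.5 against 0 over all rows. Ifi206, Ifi208, Ifi209, Ifi211 and Ifi213 all had their lowest level in Atf3-/-FS6KD replicate 4, from 0.04 CPM for Ifi206 to 1.14 CPM for Ifi211. Without that library their log2 fold changes went from -0.51 to -0.05 for Ifi206, -0.49 to -0.16 for Ifi208, -0.79 to -0.39 for Ifi209, -0.49 to -0.18 for Ifi211 and -0.58 to -0.15 for Ifi213. Aim2 differed in direction. It was at 1.89, 1.97, 1.56 and 2.41 CPM in Atf3+/+FS6KD against 2.87, 3.86, 2.79 and 3.03 CPM in Atf3-/-FS6KD, with no overlap, a log2 fold change of 0.67 ± 0.17 and an adjusted p of 0.317 (edgeR). In the AAV comparison 7 were tested, 2 higher and 5 lower, 0 called, with Ifi208 lowest at -0.35 ± 0.14 (adjusted p = 0.34, edgeR).

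**Figure D3:**
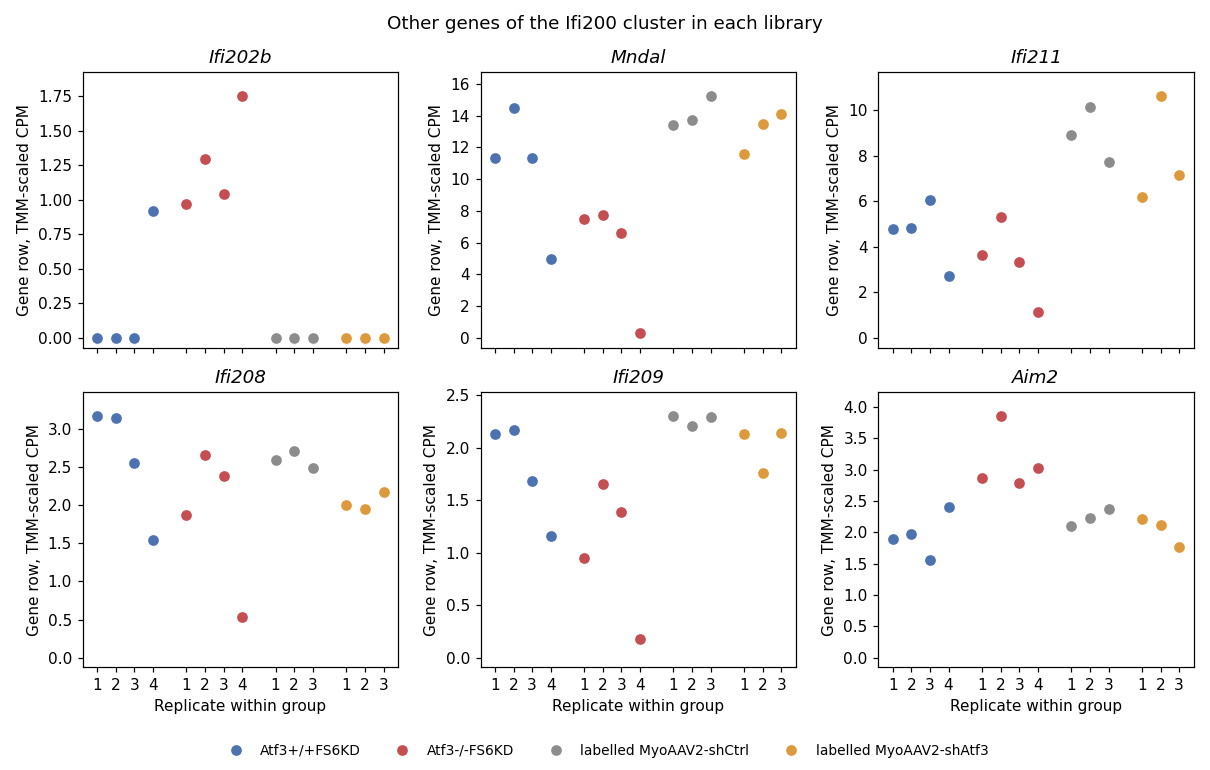
TMM-scaled CPM (y axis) of the gene rows of 6 other genes of the cluster in each library (x axis, replicates within 4 groups). Ifi202b is at 0 in 9 libraries, and Mndal, Ifi211, Ifi208 and Ifi209 are lowest in Atf3-/-FS6KD replicate 4.

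The members are interferon-induced, so interferon response and DNA sensing genes were tested beside them. Of 32 interferon response genes tested in the knockout comparison, 27 were higher and 5 lower, with 0 called and a median log2 fold change of 0.11. Xaf1, an apoptosis regulator induced by interferon, was at 0.86 ± 0.25 (adjusted p = 0.368, edgeR, and 0.0451 with DESeq2, in a range up to 0.813 over 17 alternatives), and Ifi47, an interferon-induced GTPase, at 0.42 ± 0.3 (adjusted p = 0.657, edgeR). The Ifi47 value was 0.12 without Atf3-/-FS6KD replicate 2 and 0.65 without Atf3+/+FS6KD replicate 2. Of 11 DNA sensing genes, 8 were higher and 3 lower, with 0 called and a median of 0.18. The inflammasome sensor Nlrp3 was at 0.79 ± 0.25 (adjusted p = 0.389, edgeR) and the pore-forming Gsdmd at 0.46 ± 0.16 (adjusted p = 0.401, edgeR). All 15 macrophage markers were higher, with 0 called and a median of 0.31, as were all 5 fibroblast markers, with 0 called and a median of 0.27 (summed level 1087 to 1359 CPM against 1268 to 1711 CPM). Of 6 cardiomyocyte markers, 1 was higher and 5 lower, with 0 called and a median of -0.16 (summed level 50761 to 62635 CPM against 42404 to 57436 CPM). The lowest was troponin T, Tnnt2, at -0.36 ± 0.08 (adjusted p = 0.277, edgeR), with no overlap. The 1 higher marker, Actc1, had the largest change of the list, at 0.47 ± 0.12 (adjusted p = 0.317, edgeR), and its groups overlapped.

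In the AAV comparison all 33 interferon response genes tested were lower under the shAtf3 label, with 0 called and a median of -0.24 against 0 over all rows. Mx1, an antiviral GTPase, was at -1.23 ± 0.48 (adjusted p = 0.337, edgeR), with 0.377 to 1.48 CPM against 0.336 to 0.476 CPM, which overlapped. Without replicate 3 labelled shCtrl, which held the highest value, Mx1 did not pass the filter of 1 CPM. Ifit3 was at -0.75 ± 0.25 (adjusted p = 0.26, edgeR), or -0.38 without the same library. All 15 macrophage markers were lower, with 0 called and a median of -0.22, and their summed level was 571 to 648 CPM against 504 to 565 CPM. All 5 fibroblast markers were lower too, with a median of -0.38 and a summed level of 1307 to 1669 CPM against 1064 to 1222 CPM. The collagen gene Col1a1 was the 1 fibroblast marker called (-0.84 ± 0.11, adjusted p = 0.0293, edgeR). All 6 cardiomyocyte markers were higher, with 0 called, a median of 0.13 and a summed level of 48316 to 54343 CPM against 52246 to 57011 CPM. The part of these cell type markers in the member levels was not tested. Of 10 DNA sensing genes, 5 were higher and 5 lower, with 0 called.

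Genes that start within 2 Mb of the members were tested as neighbours. Of 92 listed, 32 were tested in the knockout comparison, with 0 called (edgeR), 9 at an unadjusted p below 0.05, and 11 higher against 21 lower. Without the Ifi200 family, 24 were tested, 9 higher and 15 lower, with a median of -0.13 and 8 at an unadjusted p below 0.05, where the share over all rows was 10.1%. Dusp23, a phosphatase gene whose start lies at -1289.6 kb from that of Ifi203, had the lowest unadjusted p, with -0.66 ± 0.11 and an adjusted p of 0.248 (edgeR). In the AAV comparison 32 were tested, with 0 called, 6 at an unadjusted p below 0.05 (12.7% over all rows), and 12 higher against 20 lower. Without the family 5 of 25 had such a p.

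**Figure D4:**
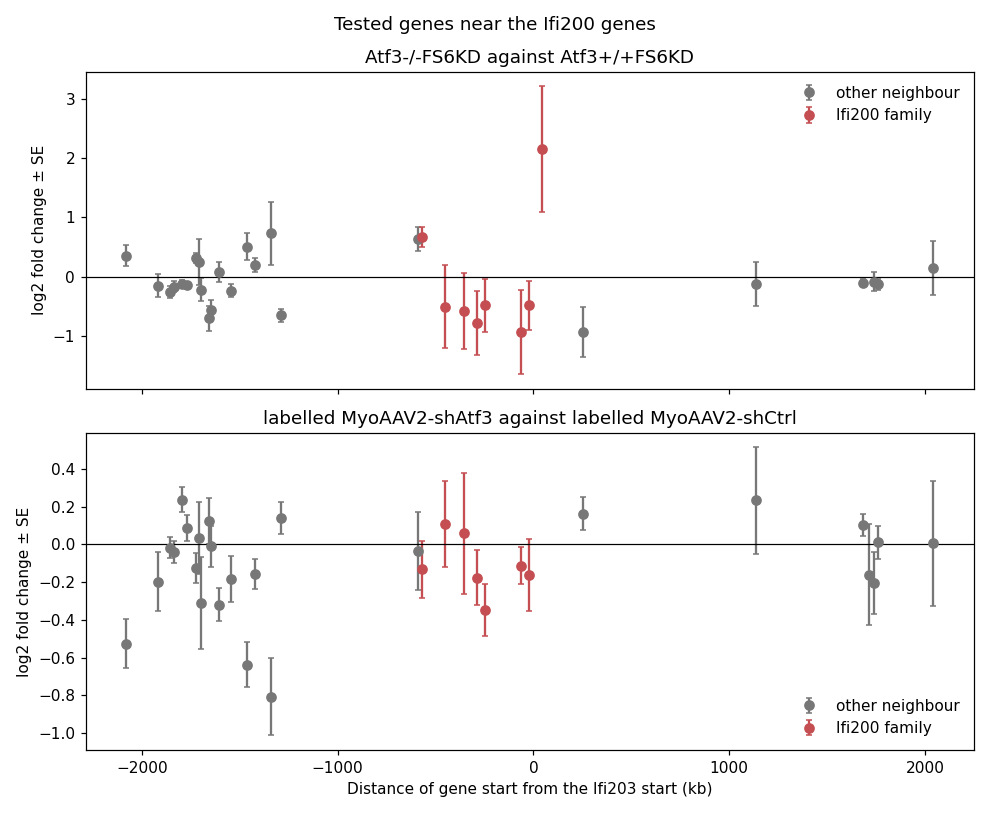
log2 fold change with its SE (y axis, scaled separately per panel) of tested genes against the distance of their start from that of Ifi203 (x axis, kb), for the knockout (top) and AAV (bottom) comparisons. Ifi202b stands highest at 2.16 in the knockout panel and was not tested in the AAV panel, where its count was 0.

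The level profile of Ifi205 over the 8 knockout libraries was most like that of its neighbours. By the root mean square difference of centred log2 CPM, the 5 nearest of 15581 other rows were Mndal_1 (0.26), Ifi211 (0.28), Ifi209 (0.38), Ifi208 (0.39) and Ifi213 (0.41), all of the same cluster, against 0.84 for a flat profile. Ifi205 shares 626 sequence windows with Ifi211 and 106 with Mndal, so part of the counts of these rows may be the same reads. Ifi207 was nearest to Apol9b (0.1), Tspan4 (0.12) and Ifit3 (0.12), with Gm4951_1 and Ifit3b next. Ifi204 was nearest to Lag3 (0.08) and Cfb (0.09), followed by Cfb_1, Trbc1 and BE692007. Ifi203, whose profile was close to flat (0.17), was nearest to Gm15421 (0.05), Gm32432, Xndc1, Xntrpc and Ttf1. Over the 6 AAV libraries the nearest rows were Dis3 for Ifi203, Mboat1 for Ifi204, Htr2b for Ifi205 and Ero1b for Ifi207, and none was of the Ifi200 cluster.

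Copy row shares were also measured in other genes. Over the knockout libraries the range of the share was 35.4 points for Ifi203, 26.3 for Ifi204, 49.7 for Ifi205 and 47.6 for Ifi207. The median range over the 681 other genes was 1.69 points, and 112 (16.4%) ranged over more than 10 points. Wider ranges were seen in 19 other genes for Ifi203, 34 for Ifi204, 8 for Ifi205 and 8 for Ifi207. The range of Ifi205 rests on the 112 counts of Atf3-/-FS6KD replicate 4, and in the other 7 libraries its share lay between 26.6% and 33.8%. Over the AAV libraries the members ranged over 0.9 to 4.36 points, and 13 of 613 other genes (2.12%) over more than 10.

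By a measure that also weighs the size of the steps, no other gene compared followed the members closely over the 14 libraries. Ifi202b had no count in 9 libraries, thus no share there, and was not compared. Of 663 genes compared, Apobec3 on chromosome 15 had the smallest root mean square difference from the pooled centred share (6.9 points), followed by Dffa, Agtrap, Casz1 and Gm13205 on chromosome 4 (7.35 to 7.67), against 10.9 for a flat profile. Apobec3 was at 58.7% in Atf3-/-FS6KD replicate 4 and 5.1% in Atf3+/+FS6KD replicate 4. Agtrap was at 41.6% to 43.7% in Atf3-/-FS6KD replicates 1, 2 and 4 and between 14.2% and 16.8% in the remaining 5 knockout libraries.

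Along chromosome 1, other genes with copy rows took other orders of libraries. Acadl, 107 Mb before the members, was at 42.9%, 61.1%, 23.3% and 42.9% in Atf3+/+FS6KD and 42.9%, 24.2%, 43.3% and 42.8% in Atf3-/-FS6KD, and at 42.6% to 61.1% in the AAV libraries. Sox13, 40.3 Mb before them, was at 74.7% in Atf3-/-FS6KD replicate 1, 48.4% and 47.9% in Atf3-/-FS6KD replicates 3 and 4, and between 20.3% and 23.1% in each of the remaining 11 libraries. Desi2, 4.16 Mb after the members, and Slc30a1, 0.736 Mb from Atf3, stayed between 49.9% and 50% in all 14 libraries, an even split over 2 rows, so they do not bear on the levels seen in the members. Traf5 and Rcor3, 0.827 and 0.928 Mb from Atf3, were off an even split and ranged over 4.97 and 3.03 points. Within the cluster, the share of Mndal was 15.5%, 17.2%, 15.8% and 17% in Atf3+/+FS6KD and 17.5%, 16.2%, 15.8% and 27.4% in Atf3-/-FS6KD, where the last value rests on 55.5 counts (interval 17.3% to 40.2%). The allele that each heart carried at any of these loci was not determined, and strain alleles and the Atf3 genotype cannot be told apart in the group means. Heart by heart, the pooled member share did not follow the Atf3 genotype. Atf3+/+FS6KD replicate 4 (51.3%) lay within Atf3-/-FS6KD replicates 1 to 3 (49.4% to 51.4%), and Atf3-/-FS6KD replicate 4 was at 72.4%. Whether strain alleles set these shares was not tested.

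**Figure D5:**
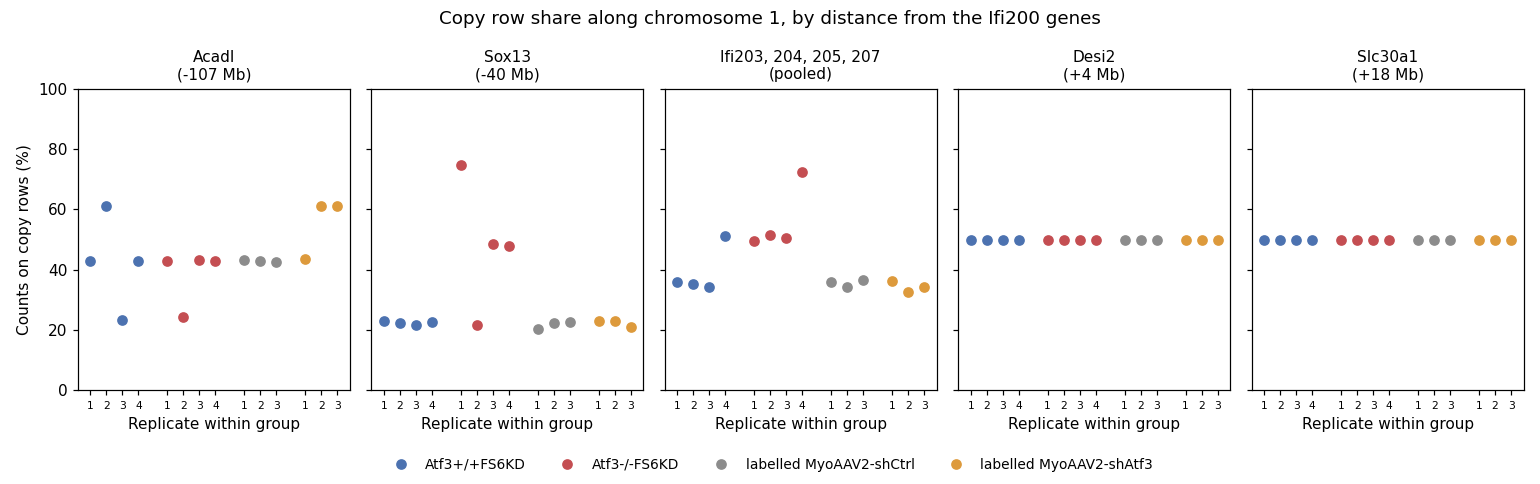
Share of counts on copy rows (y axis, percent) in each library (x axis, replicates within 4 groups) for 4 genes along chromosome 1 and for the 4 Ifi200 genes pooled; the title of each panel gives the distance from the Ifi200 genes in Mb. Acadl and Sox13 order the libraries differently from the pooled members, and Desi2 and Slc30a1 stay at 50%.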

How the data were processed

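Bulk RNA-seq of 14 whole hearts was analysed. The authors deposited 1 table per experiment with estimated counts per row: 19.3% to 24.4% of the values of a library are not whole, so reads that map to several rows appear to have been split among them. Per the labels, counts came from featureCounts 2.0.0 on GRCm38.p6; the aligner, and whether strand was used in counting, is not given in the sources used here. Libraries were stranded mRNA. Copy rows held 2.4% to 2.59% of counts, and 40017 of 42396 rows matched a RefSeq symbol.

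Counts were rounded and rows above 1 CPM in at least 1 library were tested with edgeR 4.0.16 (R 4.3.3, TMM, two-sided quasi-likelihood F-test, p-values adjusted by Benjamini-Hochberg) within each experiment. The design had assumed raw counts. DESeq2 1.42.0, other scalings, no filter, copy rows summed into their gene, a replicate block and leaving out each library were tried. Total level is the summed CPM of gene and copy rows; copy row share is the percentage of their counts on copy rows, with Wilson intervals (95%, scipy 1.17.1); the floor is 3 counts. Likeness used log2(CPM + 0.5). edgeR was tested on simulated data. Transcript windows came from GENCODE transcripts, promoters and positions from RefSeq.

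Libraries were grouped by GEO labels. The members and gene lists were chosen with earlier results of these data known. Named genes were the members, all listed family rows, up to 4 genes per list by size of change, neighbours within 2 Mb and the 5 nearest profiles. Replicates came from separate samples per the labels.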

Additional observations from a re-analysis of the deposited data

Results flagged for a closer look

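Other genes of the cluster were examined for single libraries that stand apart. The gap to the nearest of the 4 libraries of a group was set against Dixon's 95% limit. Chance meets this limit in about 1 of 20 groups if values are normally distributed. That rate does not hold for series with few or no counts. The members were left out, since their values led to their choice. Of 18 series of total levels, 3 passed the limit. These were Ifi202b in Atf3+/+FS6KD replicate 4 (4.58 CPM), Mndal in Atf3-/-FS6KD replicate 4 (0.44 CPM) and Ifi214 in Atf3-/-FS6KD replicate 2 (0.26 CPM). For Ifi202b the remaining Atf3+/+FS6KD hearts had 0 counts, so any count would have passed. The Ifi214 value rests on 10 counts, against 1.5 to 6 in the other Atf3-/-FS6KD hearts, near the floor of 3 counts. The genes lie in 1 cluster, so these values are not independent.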

How the results depend on the processing

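The knockout comparison called 0 rows with edgeR as reported, with other scalings, with copy rows summed and under the replicate block. It called 208 with DESeq2, 2 without the filter, 8 in replicates 3 and 4 only, 4 without both replicates 4, and 0 to 15 when each library was left out. The AAV comparison called 82, against 308 with DESeq2, 304 without the filter, 20 under the replicate block and 1 to 285 when each library was left out. The correlation of deviations of libraries with the same number was 0.03 to 0.2 in the knockout and -0.04 to 0.18 in the AAV experiment, so the numbers were not taken as pairs. Fold changes of named genes that changed sign when 1 library was left out ran from -0.0302 to 0.602 for Zbp1 (knockout), -0.393 to 0.084 for Cgas, -0.0527 to 0.222 for Ifi206, -0.202 to 0.359 for Ifi213 and -0.962 to 0.126 for Igtp (AAV). The causes were not tested. When each knockout library was left out, the share difference ran from 11 to 20 points for Ifi203, 8.76 to 15.2 for Ifi204, 4.69 to 19.7 for Ifi205 and 15.5 to 27.1 for Ifi207, lowest each time without Atf3-/-FS6KD replicate 4, and log2 ratios of totals near 0 changed sign. Other genes with non-overlapping shares numbered 23 to 27 (knockout) and 52 to 63 (AAV) at other count minimums. Member rows of the shallow libraries hold few counts, which limits the precision of single shares.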
